A study of Mus musculus with 17 samples.

Results

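Hcrt, Gal and Nts encode the precursors of orexin (hypocretin), galanin and neurotensin. They were taken as all probe sets whose platform gene symbol was one of these 3, which gave 3 of the 22690 probe sets on the array and 3 of 12393 genes, 1 probe set each: 1420471_at for Hcrt, 1460668_at for Gal and 1422860_at for Nts. Each was read in 17 hypothalami of male C57Bl/6 mice aged 9 weeks, with 1 array per hypothalamus. The 6 controls were wild-type mice given vehicle. The 6 STZ mice were wild-type and received 1 intraperitoneal dose of streptozotocin, which kills the beta cells of the pancreas, at 200 µg/g body weight. The 5 ob/ob mice have no functional leptin owing to a mutation of its gene, and the labels describe no injection of theirs separately. All 3 were above the signal filter (3 of 3), and none of the differences between groups passed the threshold of 0.05 on p-values adjusted over all probe sets.

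Orexin neurons lie in the lateral hypothalamus and its perifornical area, project through the whole brain, and are known for holding wakefulness and for driving arousal and food seeking. Galanin is made in several hypothalamic nuclei and the preoptic area, and is best known for feeding and for sleep and neuroendocrine control. Neurotensin is made in lateral hypothalamic neurons that carry the leptin receptor and in other areas, and is known for lowering food intake and for modulating dopamine neurons. Each peptide is cut from its larger precursor protein in the secretory pathway and acts on G protein-coupled receptors, with sortilin as a further, unrelated receptor of neurotensin.

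The 250 bases before each gene's start are shown because the 3 genes are compared as a set and their proximal promoters differ in composition and in the motifs they hold. They are from RefSeq on the mouse build GRCm38.p6, 5′ to 3′ on the minus strand for all 3 genes, with motif matches in capitals.
Hcrt, chr11:100762932-100763181: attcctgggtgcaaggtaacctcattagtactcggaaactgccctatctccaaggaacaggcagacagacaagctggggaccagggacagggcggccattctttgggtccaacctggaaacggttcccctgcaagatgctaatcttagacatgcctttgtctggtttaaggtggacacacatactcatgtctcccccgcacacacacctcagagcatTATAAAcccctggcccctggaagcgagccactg
Gal, chr19:3414545-3414794: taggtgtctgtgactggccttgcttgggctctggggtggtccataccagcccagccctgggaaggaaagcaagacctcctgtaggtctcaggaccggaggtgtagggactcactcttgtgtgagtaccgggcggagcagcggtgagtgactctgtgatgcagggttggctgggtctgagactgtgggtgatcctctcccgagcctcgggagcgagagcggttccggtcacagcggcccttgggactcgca
Nts, chr10:102490419-102490668: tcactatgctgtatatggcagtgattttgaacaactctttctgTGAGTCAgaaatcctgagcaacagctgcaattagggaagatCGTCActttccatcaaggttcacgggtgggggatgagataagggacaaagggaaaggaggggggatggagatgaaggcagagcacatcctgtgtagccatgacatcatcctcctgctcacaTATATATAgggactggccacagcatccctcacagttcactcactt
Hcrt has a TATAAA box from 33 to 28 bases before its start, a match found in 12.4% of the 32851 promoters of this length. Nts has overlapping TATATA matches starting 45 and 43 bases before its start (in 5.25% of promoters). It also has a match to TGACG, the core of a cAMP response element, on the opposite strand from 166 to 162 bases before the start (17.8%), and the AP-1 motif TGANTCA from 207 to 201 bases before it (6.75%). Gal held no match to any of the 9 motifs searched, on either strand. The other 5 motifs were the STAT motif TTCNNNGAA (7.02% of promoters), the full cAMP response element TGACGTCA (1.55%), the forkhead motif GTAAACA (3.17%), the E-box CACGTG (6.02%) and CCAAT (33.8%), and none was found in the 3 sequences. The GC content was 62.4% for Gal, 53.6% for Hcrt and 48% for Nts, against a median of 52.4% over all promoters. A match describes the letters of these windows and is not a binding site.

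The arrays were alike in scale, with a trimmed mean of 1500.37 to 1500.43 and medians of 637.6 to 707.05, and correlated with each other at 0.954 to 0.972. Of 12 hypothalamus markers 10 had a probe set and 6 passed the filter, and the summed signal of the 10, most of it from Avp and Oxt, ranged from 24378.4 to 39785.5 over all arrays. The transcription factors Nkx2-1, Nr5a1, Otp and Rax were below the signal filter. None of 6 pituitary markers was above it, with summed signals of 578.6 to 1286.4. Markers of striatum, cortex and thalamus were present and differed in level between arrays, and their values are given beside the results they move with.

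Hcrt was the member with the largest difference between groups: its geometric mean signal was 7620 for control, 6865 for STZ and 5404 for ob/ob mice. The controls ran from 6282.1 over a median of 7377.1 to 10501.1, and the STZ arrays from 6060.0 over 6557.05 to 8281.4. The ob/ob signals were 5043.4, 5494.4, 5990.8, 5022.5 and 5527.8. All 5 ob/ob arrays therefore lay below the lowest of the 12 others, while the STZ and control arrays overlapped over most of their range. The ob/ob level was 0.709 of the control level (95% interval 0.604 to 0.833), a log2 difference of -0.50 ± 0.111 (SE). The unadjusted p was 0.000243 and the p adjusted over 13576 probe sets was 0.0687 (limma with Benjamini-Hochberg adjustment), which missed the threshold. Without control 4 the difference was -0.54 with an adjusted p of 0.0487, and over all single arrays left out the adjusted limma p ran from 0.0487 to 0.167. In whole tissue, fewer orexin neurons, less Hcrt RNA per neuron and a different share of other tissue in the sample cannot be told apart.

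The STZ level of Hcrt was 0.901 of control, a log2 difference of -0.15 ± 0.106 with a 95% interval of -0.37 to 0.070 (limma, unadjusted p 0.170, adjusted p 0.755). The interval runs from a decrease to a small increase, so neither an equal level nor a difference of that size is shown. Against STZ, the ob/ob level was 0.787, a log2 difference of -0.35 ± 0.111 (limma, unadjusted p 0.00554, adjusted p 0.9996). In the order control, STZ, ob/ob, the neighbours control and STZ overlap and ob/ob does not overlap with either.

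Gal, the galanin precursor, had a geometric mean of 3112 for control, 2985 for STZ and 2537 for ob/ob mice. The controls ran from 2635.1 over a median of 3246 to 3403.1 and the STZ arrays from 2820.6 over 2995.65 to 3159.6. The ob/ob signals were 2575.3, 2591.1, 2621.9, 2147.5 and 2796.9. Of the 5 ob/ob arrays 4 lay below every control, and ob/ob 5 lay above control 4. All 5 lay below the lowest STZ array, ob/ob 5 by a narrow margin. The ob/ob level was 0.815 of control (95% interval 0.734 to 0.905), a log2 difference of -0.29 ± 0.0721 (limma, unadjusted p 0.000588, adjusted p 0.0886). Without control 4, the control with the lowest Gal signal, the difference was -0.34 with an adjusted limma p of 0.0346, and the range over single arrays left out was 0.0346 to 0.197.

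The STZ level of Gal was 0.959 of control, a log2 difference of -0.060 ± 0.0687 (limma, 95% interval -0.20 to 0.083, unadjusted p 0.391, adjusted p 0.863). All 6 STZ arrays lay inside the range of the controls and below their median. Against STZ, the ob/ob level was 0.850, a log2 difference of -0.23 ± 0.0721 (limma, unadjusted p 0.00403, adjusted p 0.9996).

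Nts, the precursor of neurotensin, had a geometric mean of 4386 for control, 4056 for STZ and 4017 for ob/ob mice. The controls ran from 3969.1 over a median of 4378.95 to 4820.6 and the STZ arrays from 3828.7 over 3918.55 to 4615. The ob/ob signals were 3940.2, 4652.7, 4032.2, 3979.7 and 3554.4. The 3 groups overlapped, with ob/ob 2 near the top of all arrays and ob/ob 5 the lowest of all 17. The log2 difference from control was -0.11 ± 0.0619 in STZ (limma, 95% interval -0.24 to 0.017, unadjusted p 0.0843, adjusted p 0.666). In ob/ob it was -0.13 ± 0.0650 (limma, 95% interval -0.26 to 0.0088, unadjusted p 0.0653, adjusted p 0.465). Between ob/ob and STZ it was -0.014 ± 0.0650, with a 95% interval of -0.15 to 0.12 (limma, adjusted p 0.9996).

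**Figure D1:**
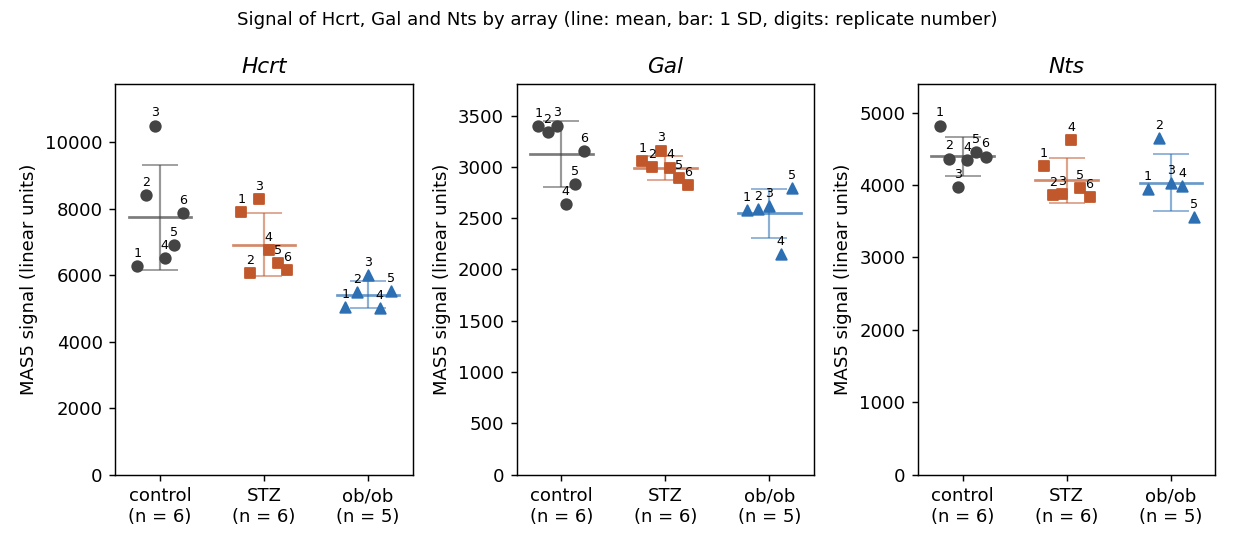
Signal of Hcrt, Gal and Nts (linear MAS5 units, axes from 0) in each of the 6 control, 6 STZ and 5 ob/ob arrays, with the mean as a line, 1 SD as a bar and the replicate number beside each point. The ob/ob arrays lie below all others for Hcrt, below all STZ arrays and, apart from ob/ob 5, below all controls for Gal, and among the others for Nts.

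Against control, 0 of the 3 genes passed the adjusted threshold in STZ, where 0.0516% of all probe sets did, and 0 of 3 in ob/ob, where 0.125% did (limma). These shares stand for 7 and 17 probe sets, counts that ran from 0 to 18 and from 8 to 43 when single arrays were left out. At an unadjusted p under 0.05, 0 of 3 were lower in STZ, against 4.38% of probe sets, and 2 of 3 were lower in ob/ob, against 6.12%. For ob/ob against STZ, 0 of 3 passed, against 0.0368% of probe sets, and 2 of 3 were lower at an unadjusted p under 0.05, against 2%. Hcrt ranked 48 and Gal 90 by p among all probe sets for ob/ob against control. In STZ against control 0 of the 3 were without overlap, against 0.302% of probe sets that were lower in that way. Groups without overlap were found in ob/ob against control for Hcrt alone of the 3, against 1.07% of probe sets lower in that way, and in ob/ob against STZ for Hcrt and Gal, against 0.273%. Hcrt was 1 of 5 probe sets, 0.0368% of those tested, whose ob/ob arrays lay below all control and all STZ arrays. The 3 comparisons share arrays, so their results for a gene are not independent.

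The spread between arrays of a group differed by gene. The SD of log2 Hcrt was 0.278 among controls, at the 90.5th percentile of the probe sets tested, 0.192 in STZ and 0.106 in ob/ob, at the 38.5th percentile. Hcrt thus spread most where its level was highest, with a 1.67-fold range among the controls and a 1.19-fold range in ob/ob. The SD of Gal was 0.154 for control, 0.0579 for STZ and 0.143 for ob/ob arrays, and that of Nts was 0.0895, 0.107 and 0.139. Differences between these SDs were not tested.

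Across the arrays, with each group's mean subtracted, Hcrt and Gal moved the same way (Pearson r = 0.54, permutation p 0.0444, adjusted p 0.0888 over 6 relations, n = 17). Spearman's rho was 0.58 (permutation p 0.0217, adjusted p 0.0828), and r was 0.49 without control 4 and ob/ob 4, the arrays farthest from the median of Gal. Within the controls r was 0.53 (exact permutation p 0.264) and within STZ 0.83 (exact permutation p 0.05). Nts followed neither gene, with r = -0.24 to Hcrt (permutation p 0.319, adjusted p 0.386; rho -0.069, p 0.794) and r = -0.063 to Gal (permutation p 0.822, adjusted p 0.822; rho -0.12, p 0.663). Within the 6 controls the correlation of Hcrt and Nts was -0.85 (exact permutation p 0.0278, not adjusted), with a rho of -0.66 (exact permutation p 0.175), and in STZ r was 0.21.

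Markers of the regions next to the hypothalamus ran opposite to Hcrt and Gal. Of 22 markers of striatum, cortex and thalamus 14 had a probe set and 11 were bright enough to test, and the single signals of the 11 ran from 309.9 to 4837.4, so that none was at 0. Their summed signal lay between 17190.2 and 25552.4 among controls, 19919.9 and 24913.8 among STZ arrays, and 24041.1 and 28790.7 among ob/ob arrays. Their mean log2 signal averaged 10.64 for control (10.37 to 10.92), 10.82 for STZ (10.61 to 10.97) and 10.97 for ob/ob (10.88 to 11.13), and all 11 had a positive difference between ob/ob and control. The array with the lowest level of these markers, control 3, had the highest Hcrt and the highest Gal signal. The array with the highest level, ob/ob 4, had the lowest Hcrt and the lowest Gal signal of all 17. Of the 6 hypothalamus markers tested, 5 had a negative difference between ob/ob and control, with a median of -0.23 beside -0.00051 over all probe sets. They were Pomc (-0.75), Trh (-0.37), Oxt (-0.25), Hdc (-0.22) and Sim1 (-0.083), of which Pomc passed the adjusted threshold (limma) and Trh and Oxt had an unadjusted p under 0.05. Avp had 0.19. The part of either set of markers in the values of Hcrt and Gal was not tested beyond the covariate fit of the neighbouring regions.

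With group means subtracted, this marker level had a Pearson r of -0.68 with Hcrt (permutation p 0.0138, adjusted p 0.0414, n = 17) and of -0.70 with Gal (permutation p 0.00634, adjusted p 0.038). Spearman's rho was -0.60 for Hcrt (permutation p 0.0317, adjusted p 0.0828) and -0.55 for Gal (permutation p 0.0414, adjusted p 0.0828). Without control 3 and control 4, the arrays farthest from the median marker level, r was -0.48 for Hcrt and -0.53 for Gal. Within the controls r was -0.80 for Hcrt and -0.85 for Gal (exact permutation p 0.0583 and 0.0403), and within STZ -0.47 and -0.23 (exact permutation p 0.346 and 0.676). Nts had an r of 0.25 with the same level (permutation p 0.322, adjusted p 0.386; rho 0.26, p 0.31).

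**Figure D2:**
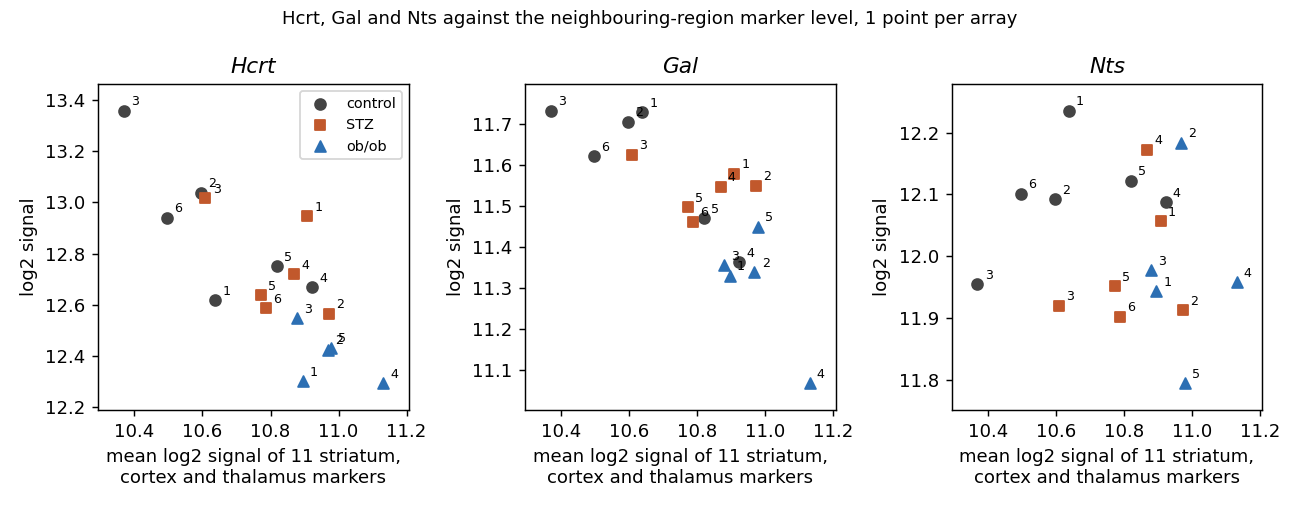
Log2 signal of Hcrt, Gal and Nts (y axes) against the mean log2 signal of 11 striatum, cortex and thalamus markers (x axes), 1 point per array with its replicate number, for control, STZ and ob/ob. Hcrt and Gal are highest in control 3, at the lowest marker level of 10.37, and lowest in ob/ob 4, at the highest of 11.13, and Nts shows no such course.

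With the marker level as a covariate in the limma fit, the ob/ob difference of Hcrt from control was -0.19 ± 0.118 (adjusted p 0.744), 37.6% of the value without it. That of Gal was -0.11 ± 0.0805 (adjusted p 0.789), 36.7% of its value. The difference between ob/ob and STZ was -0.20 for Hcrt and -0.15 for Gal, 59.1% and 63.7% of the values without the covariate. The differences between STZ and control became 0.018 for Hcrt and 0.041 for Gal. Those of Nts became -0.15 in STZ and -0.19 in ob/ob, the latter 147% of its value. A marker level that differs between groups takes part of the group difference into the covariate, so the covariate fit and the plain fit answer different questions, and how much other tissue each sample held was not measured.

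**Figure D3:**
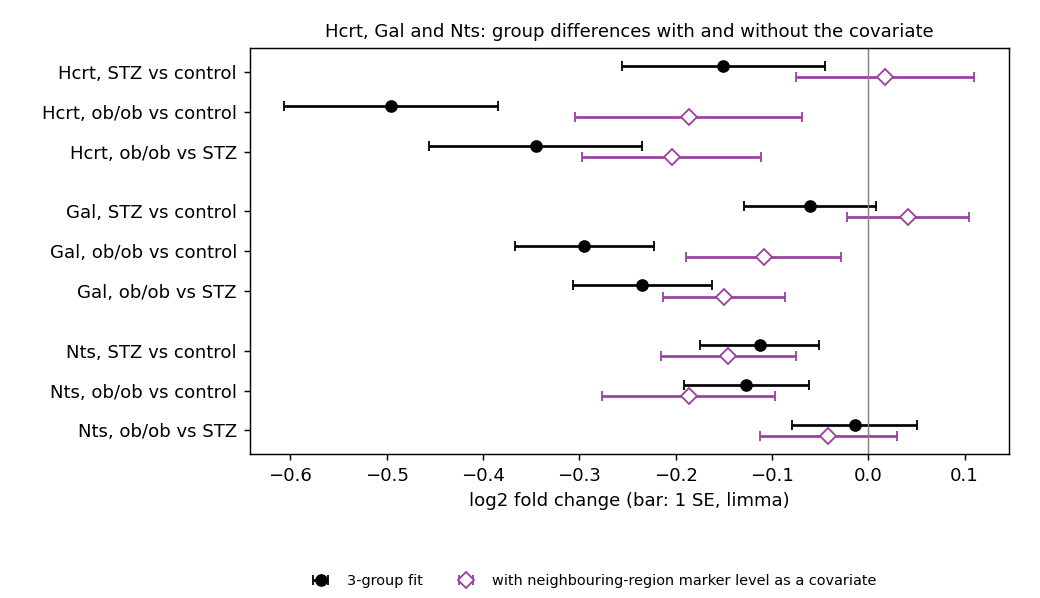
Log2 fold changes with 1 SE (limma) of Hcrt, Gal and Nts in each comparison, as filled circles from the fit of 3 groups and as open diamonds with the level of 11 striatum, cortex and thalamus markers as a covariate. The ob/ob differences of Hcrt and Gal from control move from -0.50 and -0.29 to -0.19 and -0.11, and that of Nts from -0.13 to -0.19.

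Of the 9 genes of the receptor list 5 had a probe set with a single gene symbol, and 3 were bright enough to test. Both orexin receptor genes (Hcrtr1 and Hcrtr2), Galr3 and the galanin-like peptide gene Galp are not analysed here. The galanin receptors Galr1, with geometric means of 228 in control, 242 in STZ and 217 in ob/ob, and Galr2, with 23.7, 29.9 and 25.1, were below the filter and were not tested. The neurotensin receptor Ntsr1 had log2 differences from control of -0.083 ± 0.115 in STZ and -0.074 ± 0.121 in ob/ob. Ntsr2, the receptor found largely in glia, had differences of -0.043 ± 0.0474 and -0.037 ± 0.0497. Sort1, which encodes sortilin, had 0.031 ± 0.0570 and 0.091 ± 0.0598 at its brightest probe set, and -0.043 and -0.010 as the mean of its 3 probe sets, so its sign depends on the probe set. None of the 3 receptors passed, at an adjusted or an unadjusted p under 0.05 (limma), in any of the comparisons.

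Of 8 genes that cut, trim or otherwise mature peptide precursors 7 were tested and 0 passed, with a median log2 difference of -0.031 in ob/ob against control, beside -0.00051 over all probe sets. At an unadjusted p under 0.05 (limma), 1 of the 7 was higher in STZ, against 3.87% of probe sets, and 0 in ob/ob, against 5.75%. The smallest p-values were those of the convertase Furin in STZ (0.24 ± 0.0974, limma adjusted p 0.521) and of Scg5, the chaperone of a prohormone convertase, in STZ (0.075 ± 0.0389, adjusted p 0.634). Of 5 peptidases that degrade neuropeptides 4 were tested, with 0 passing at an adjusted or an unadjusted p under 0.05. Neurolysin (Nln), which cleaves neurotensin, had a difference of 0.12 ± 0.0830 in ob/ob (limma adjusted p 0.610) at its only probe set above the signal filter. The mean over all Nln probe sets, which takes in those below the filter, was -0.0070. Ece1, endothelin-converting enzyme, had -0.059 ± 0.0683 in STZ (limma adjusted p 0.865) and 0.013 as the mean.

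Other genes of orexin neurons gave little to set beside Hcrt. Of 6 listed 5 had a probe set, and Nptx2, Lhx9 and Igfbp3 were below the filter. At their brightest probe sets 2 were tested, with 0 passing at an adjusted or an unadjusted p under 0.05. Slc17a6, the vesicular glutamate transporter of hypothalamic neurons, had a difference of -0.082 ± 0.0407 in ob/ob (limma adjusted p 0.441). At a less bright probe set Slc17a6 had -0.17 ± 0.0678 in ob/ob (limma unadjusted p 0.0209, adjusted p 0.316). Pdyn, whose product dynorphin is released by orexin neurons and made in many others, had 0.22 ± 0.136 (adjusted p 0.564), opposite in sign to Hcrt, and -0.022 with the marker level as a covariate. Of 3 genes of the neighbouring melanin-concentrating hormone neurons, the 2 tested were Cartpt, an anorexigenic peptide precursor, and Tacr3, the neurokinin B receptor. Cartpt had -0.35 ± 0.0777 in STZ (limma adjusted p 0.134, and 0.0304 without STZ 1) and Tacr3 -0.17 ± 0.104 in ob/ob against STZ (adjusted p 0.9996). Of 5 genes of arcuate neurons that can also hold galanin or neurotensin 3 were tested and 0 passed at either p. The dopamine synthesis enzyme Ddc and the dopamine transporter Slc6a3 had -0.13 ± 0.118 and -0.22 ± 0.210 in ob/ob against STZ.

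Of 22 other neuropeptide precursors 15 were tested, and 1, Pomc, passed. Pomc, the precursor of the melanocortins that restrain feeding, fell by 0.65 on the log2 scale in STZ (SE 0.116, limma adjusted p 0.0384) and by 0.75 in ob/ob (SE 0.122, adjusted p 0.0121). Its call in STZ was lost without any 1 of 9 arrays, with a highest adjusted limma p of 0.112, and without the filter or the trend. The ob/ob call was lost in a fit of 2 groups, and both were lost with the marker level as a covariate. At an unadjusted p under 0.05, 5 of the 15 were lower and 2 higher in ob/ob, against 6.12% and 5.75% of all probe sets. In STZ 2 were lower and 1 higher, against 4.38% and 3.87%. Their median log2 difference was -0.044 in ob/ob and 0.040 in STZ, beside -0.00051 and 0.00060 over all probe sets. In ob/ob, Hcrt at -0.50 lay below 14 of the 15 tested, and the precursors of thyrotropin-releasing hormone (Trh, -0.37 ± 0.141) and CART (Cartpt, -0.29 ± 0.0815) came next to Hcrt and Gal. At the other end were the orexigenic peptide precursor Npy (0.27 ± 0.0811) and the cholecystokinin precursor Cck (0.42 ± 0.120).

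**Figure D4:**
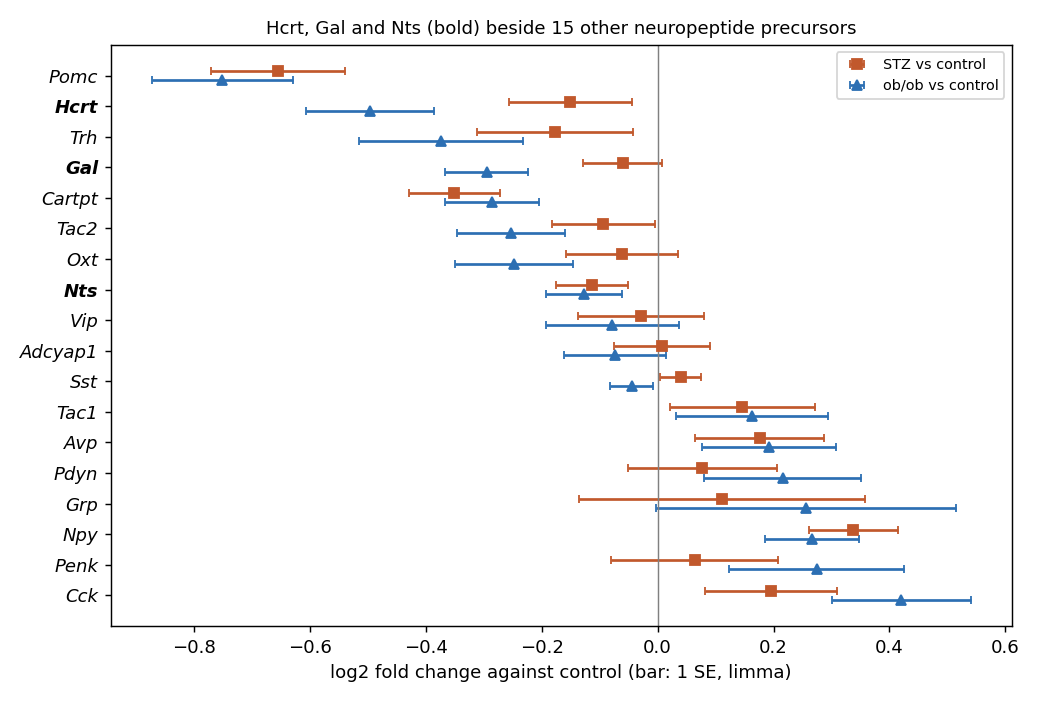
Log2 fold changes against control (limma, bars are 1 SE) in STZ as squares and ob/ob as triangles for Hcrt, Gal and Nts (bold) and 15 other neuropeptide precursors, ordered by the ob/ob value. Pomc has the lowest ob/ob value at -0.75, Hcrt follows at -0.50, and Cck is highest at 0.42.

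Markers of cell types were set beside these values, and 0 of their genes passed the adjusted threshold (limma). In ob/ob against control 27 genes of neurons, astrocytes, oligodendrocytes, microglia and endothelium were tested. At the brightest probe sets and an unadjusted p under 0.05, 2 of the 27 were higher (Rbfox3 and Mog) and 2 lower (Aqp4 and Cx3cr1), against 5.75% and 6.12% of all probe sets. Stmn2 (-0.14), Aldoc (0.25) and Mbp (0.14) had an unadjusted p under 0.05 at a less bright probe set only. Of the 6 neuron markers 4 had a negative and 2 a positive difference in ob/ob, with a median of -0.043. Rbfox3 had 0.18 ± 0.0800 in STZ and 0.18 ± 0.0839 in ob/ob, while Stmn2 had -0.085 ± 0.0467 in ob/ob at its brightest probe set. Among 6 astrocyte markers, at their brightest probe sets, the water channel Aqp4 alone had a negative difference in ob/ob, -0.29 ± 0.0605 (limma adjusted p 0.0558, and 0.0154 without control 2). The other 5 were positive, from 0.019 for Gfap to 0.10 for Slc1a3, and the median of the 6 was 0.029. In ob/ob against STZ the astrocyte marker Aldh1l1 had 0.11 ± 0.0579. The microglial receptor Cx3cr1 had -0.49 ± 0.125 in ob/ob (limma adjusted p 0.106). The microglial marker C1qb had -0.12 ± 0.0566 in ob/ob against STZ at its brightest probe set. The myelin genes Mog, in ob/ob against control, and Cnp, in ob/ob against STZ, had 0.29 ± 0.102 and 0.14 ± 0.0690, and the endothelial receptors Flt1 and Kdr had -0.18 ± 0.0918 and -0.21 ± 0.153 in ob/ob. Among the region markers, the striatal Ppp1r1b and Rgs9 had 0.48 ± 0.153 and 0.29 ± 0.124 in ob/ob, and the cortical Nrgn 0.30 ± 0.111. The cortical Mef2c had 0.22 ± 0.142 in ob/ob against STZ at its brightest probe set. The thalamic Prkcd had 0.66 ± 0.196 in ob/ob (limma adjusted p 0.164, and 0.0479 without control 4). The thalamic Ramp3 had 0.64 ± 0.178 in STZ (limma adjusted p 0.260) and 0.40 ± 0.186 in ob/ob. Between ob/ob and STZ Ramp3 had -0.23 ± 0.186, so it was highest in STZ. The part of these cell types in the values of Hcrt, Gal and Nts was not tested.

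The genes whose log2 signal was most like each of the 3 over the 17 arrays were taken by Pearson r among 7953 other genes. For Hcrt these were Nnat (r = 0.80), Scg2 (0.79), Gal (0.78), Ptch1 (0.76) and Jam2 (0.76). Scg2 encodes secretogranin II, a protein of dense-core vesicles. With group means subtracted r was 0.61 for Nnat, 0.66 for Scg2, 0.54 for Gal, 0.38 for Ptch1 and 0.65 for Jam2. For Gal these were Asb4 (r = 0.85), Ptch1 (0.79), AI504432 (0.79), Hcrt (0.78) and Maged2 (0.78). With group means subtracted r was 0.49 for Ptch1, and 0.66 for both AI504432 and Maged2. The r of Gal and Asb4 was 0.80 with group means subtracted and 0.85 without the 2 arrays farthest from the median, with a permutation p of 1e-05, the smallest that the permutations can give, and an adjusted p of 0.0603. For Nts they were Rabif (r = 0.77), Mrps35 (0.74), Praf2 (0.73), Exoc4 (0.73) and Gabrb2 (0.72), none of which is among those of Hcrt or Gal. None of the correlations passed an adjusted permutation p of 0.05, and those of Hcrt and Gal include the difference between groups that they share.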

How the data were processed

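Per the labels' protocols, RNA from each hypothalamus was purified on columns, and 10 µg of it was amplified from oligo(dT) to cRNA carrying biotin. The unit of the deposited values is intensity, with 1 signal per probe set and array on a linear scale, which the authors made with MAS5, per the submitters' processing notes. Its version, scaling target and detection calls are not given in the sources used here. All arrays had nearly the same trimmed mean, so they had been scaled to a common level. Group differences were taken within a probe set. Levels of different probe sets met only in the marker sums and means, the filter, and the choice or mean of a gene's probe sets. Groups came from the array titles. The replicate number of each array was read from its title as well, because the replicate entry recorded for the STZ arrays was malformed.

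After 64 control probe sets were left out, log2 signals above the 40th percentile of mean log2 signal (a geometric mean of 435) were kept, 13576 of 22626. All 17 arrays entered a single limma 3.58.1 fit (R 4.3.3) of 3 group means, with trended eBayes and Benjamini-Hochberg adjustment over all probe sets kept. The limma p-values set a difference between groups against the spread between arrays within groups, and the number of arrays limits the precision. Relations between genes were tested in Python 3.11.15 with SciPy 1.17.1 and numpy 2.4.6, and figures were drawn with matplotlib 3.10.9. The relations of Hcrt, Gal and Nts with each other and with the marker level used 100000 permutations within groups. The correlations with the genes most like each of the 3 used 100000 permutations over all 17 arrays, without regard to group. On data simulated with the same 13576 probe sets, a log2 change of 0.5 was recovered for 77% of changed probe sets in STZ against control, 76% in ob/ob against control and 69% in ob/ob against STZ, and a change of 1 for 98%, 96% and 97%. Of the calls 3.85%, 5.49% and 4.6% were false. The simulated noise was normal and independent between probe sets, and 100 probe sets were changed at each size. Variation that probe sets share across real arrays was absent, so these percentages need not hold for the real data.

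The genes and the lists were chosen with earlier results of these data known. Named were every probe set of Hcrt, Gal and Nts, every gene of the receptor list, from each other list the genes that passed or else the 2 with the smallest p, and the 5 genes most like each of the 3 in pattern. Other genes shown beside them (Npy, Cck, Trh, Oxt, Avp, Hdc, Sim1, Gfap, Slc1a3, Ghrh, Nmu and the genes below both groups) were chosen after their values were seen. The brightest probe set stood for a gene, and those ending in _x_at were taken where no other kind existed. Of the probe sets, 20380 had 1 symbol, 691 several and 1555 none, and those with several or none were not named. The promoters came from RefSeq by gene symbol, with 3 of 3 matched. The alternatives were other filters, quantile normalization, a pseudocount of 50, array weights, no trend, fits of 2 groups, a replicate block (statmod 1.5.0), the mean of a gene's probe sets, a covariate of region markers, and each array left out.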

Additional observations from a re-analysis of the deposited data

Results flagged for a closer look

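Arrays that stood apart from the rest of their group were sought in 99 groups of array values for the genes named, and 6 were found. Chance gives about 1 in 20 groups. None was a group of Hcrt, Gal or Nts. The precursor convertase Furin had its highest control signal, 591.6, in control 2, with the next at 494.3. The striatal marker Ppp1r1b was highest among the ob/ob arrays in ob/ob 4 at 3434.1, with the next at 2916.6, and that array also had the lowest Hcrt and Gal signals. The thalamic marker Ramp3 was lowest in STZ in STZ 4 at 551.6, with the next at 890.6. The thalamic marker Prkcd was highest among controls in control 4 at 2344.7, with the next at 1411.7, and the myelin gene Cnp was highest in the same array at 12679.0, with the next at 10750.0. Control 4 is also the control with the lowest Gal signal, and the one whose removal takes Hcrt and Gal past the threshold in ob/ob. Cnp was highest among the ob/ob arrays in ob/ob 5 at 13920.0, with the next at 11198.0.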

How the results depend on the processing

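Over the alternatives run, Hcrt and Gal kept a negative difference between ob/ob and control and between ob/ob and STZ. The fit with a replicate block gave -0.51 for Hcrt in ob/ob against control (limma adjusted p 0.0481, past the threshold), -0.30 for Gal (adjusted p 0.0896) and -0.13 for Nts. The array titles do not say whether equal replicate numbers link arrays of different groups. With group means subtracted, the correlations of the 16 same-numbered pairs ran from -0.17 to 0.11. Those of the 80 pairs with other numbers ran from -0.37 to 0.40, and these ranges cannot settle whether the numbers mark a pairing. With each array left out, Hcrt ran from -0.55 to -0.40 in ob/ob against control, from -0.21 to -0.058 in STZ against control and from -0.38 to -0.29 in ob/ob against STZ. Gal ran from -0.34 to -0.23, from -0.11 to -0.034 and from -0.27 to -0.17 in the same comparisons. Nts ran from -0.18 to -0.083, from -0.15 to -0.085 and from -0.067 to 0.030, the last turning positive without STZ 4 (0.023) or ob/ob 5 (0.030). Without control 4, ob/ob against control passed for Hcrt (-0.54) and Gal (-0.34). With the level of striatum, cortex and thalamus markers as a covariate, STZ against control turned to 0.018 for Hcrt and 0.041 for Gal. In the same fit, ob/ob against control turned to 0.032 for Ntsr1 and -0.022 for Pdyn. Rgs9 turned to -0.043, but it is among the markers averaged into the covariate, so its value there is not a separate result. Alternatives chosen after seeing the data used striatum or thalamus markers alone, or left out control 3 and control 4. In these Hcrt in ob/ob against control was -0.34 (striatum), -0.40 (thalamus), -0.44 (both controls left out) and -0.21 (both left out, with the covariate). Hcrt in STZ was 0.032 in the last of these, and Nts in ob/ob against STZ was 0.014 with the thalamus markers. Taking the mean of a gene's probe sets turned Sort1 to -0.043 in STZ and -0.010 in ob/ob, and Ece1 to 0.013 in STZ. It turned Nln to -0.0070 in ob/ob, where the mean took in probe sets below the signal filter. Sort1 in STZ ran from -0.0089 to 0.075 with each array left out. The number of probe sets called in ob/ob against control was 17, and 29 with quantile normalization, 38 with array weights, 6 in a fit of 2 groups and 0 with the covariate. In STZ against control it was 7, and 2 with the covariate. In ob/ob against STZ it was 5, 1 without the filter, with the replicate block, with the covariate, with 2 groups or with the mean of probe sets, 3 with a filter at the 60th percentile and 10 with array weights. With single arrays left out, ob/ob against control had 8 calls without control 1 or control 3, 9 without control 5, control 6, ob/ob 2 or ob/ob 5, 11 without ob/ob 4, 38 without control 2 and 43 without control 4. For STZ against control, removing STZ 1 gave 18 calls, STZ 3 gave 12, control 1 and control 4 each gave 4, control 5 gave 1, and STZ 4 and STZ 5 each gave 0. Ob/ob against STZ had 1 without STZ 2, STZ 4, STZ 5, ob/ob 2 or ob/ob 3, 2 without ob/ob 4, 3 without STZ 6 and 9 without STZ 1. The cause of these changes was not tested.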

Other observations

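Besides Hcrt, 4 probe sets had all ob/ob arrays below all control and all STZ arrays. Gabra2, an alpha subunit of a GABA receptor, fell by 0.51 on the log2 scale against control (limma adjusted p 0.0159), and Hsp90b1, a chaperone of the endoplasmic reticulum, fell by 0.27 (adjusted p 0.00645). Canx, which encodes the endoplasmic reticulum chaperone calnexin, had -0.23 (limma adjusted p 0.119), and Emg1, a ribosome biogenesis factor, had -0.16 (adjusted p 0.169). Against STZ none of the 5 passed: Gabra2 had -0.33 (limma adjusted p 0.532), Canx -0.20, Emg1 -0.18 and Hsp90b1 -0.10. These genes were noticed in the data and are given as values.

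Asb4, a gene of hypothalamic neurons and the one most like Gal over the arrays, had a log2 difference of -0.56 between ob/ob and control. Its correlation with the level of the striatum, cortex and thalamus markers was -0.66 with group means subtracted, beside -0.70 for Gal and -0.68 for Hcrt. For Nnat and Scg2, the genes most like Hcrt, the same correlations were -0.55 and -0.42, and for Rabif, the gene most like Nts, -0.036.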
